A study of Mus musculus with 6 samples.

Results

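The H3K9 demethylases examined here are 10 genes whose enzymes can remove methyl groups from lysine 9 of histone H3, taken by symbol from a table of read counts for 35976 genes. They are Kdm3a, Kdm3b and Jmjd1c of the KDM3 family, Kdm4a, Kdm4b, Kdm4c and Kdm4d of the KDM4 family, and Kdm7a, Phf2 and Phf8 of the KDM7 family. All 10 were in the table and 9 passed the filter on low counts. The exception was Kdm4d. Polyadenylated RNA came from chondrocytes of hind limb articular cartilage of mouse embryos (C57BL/6 x 129S4/SvJae, embryonic day 18.5), which were expanded on tissue culture plastic through 16 population doublings. In every library doxycycline at 2 µg/ml was given throughout to induce a histone H3.3 transgene. In the H3K9M group (replicates 1, 3 and 5) lysine 9 of the transgene was replaced by methionine, and the labels describe H3K9 methylation as suppressed. In the H3WT group (replicates 1, 2 and 4) it was wild-type H3.3, so the controls carried an induced transgene too. The labels name neither the promoter that drives the transgene nor whether embryos were pooled, and they do not say that replicates were separate cultures. P-values therefore measure the spread between these libraries, which may be in part technical. The comparison asks whether transcripts of the enzymes that remove the mark differ where its deposition is suppressed.

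Methylation of H3K9 marks silent chromatin and is laid down by methyltransferases such as the SUV39H, SETDB1 and G9a/GLP enzymes. The enzymes described here share a JmjC catalytic domain, which uses iron, oxygen and 2-oxoglutarate to oxidise the methyl group. KDM3 enzymes act on mono- and dimethylated lysine, KDM4 enzymes mainly on the di- and trimethylated forms, and KDM7 enzymes bind trimethylated H3K4 through a PHD finger and remove dimethylation nearby. In cartilage, PHF2 is known as a partner of ARID5B in SOX9-driven transcription.

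The promoters of Kdm3a and Phf2 are shown because these genes are described most closely below. Kdm3a varied with several hypoxia-response genes across libraries. Phf2 was the member whose groups did not overlap, which held for 19.4% of all tested genes. Each window spans a RefSeq start site on GRCm38.p6, with most of its bases upstream, and is written 5′ to 3′ on the gene's strand. Kdm3a lies on chromosome 6 (window chr6:71632868-71633167, minus strand) and Phf2 on chromosome 13 (window chr13:48870836-48871135, minus strand). The start sites lie 73 and 234 bases downstream of the GENCODE M21 gene starts of Kdm3a and Phf2. By that annotation most of the Phf2 window is therefore inside the gene and not upstream of it. Kdm3a has 3 windows in the RefSeq table, of which the nearest is shown. Capitals mark ACGTG or GCGTG on either strand, the core letters of the hypoxia response element.
Kdm3a: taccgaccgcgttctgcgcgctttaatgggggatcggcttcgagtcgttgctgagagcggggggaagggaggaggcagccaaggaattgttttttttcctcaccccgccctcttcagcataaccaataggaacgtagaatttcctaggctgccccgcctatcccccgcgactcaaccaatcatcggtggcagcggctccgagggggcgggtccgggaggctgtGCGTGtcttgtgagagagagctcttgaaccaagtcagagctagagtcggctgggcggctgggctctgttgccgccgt
Phf2: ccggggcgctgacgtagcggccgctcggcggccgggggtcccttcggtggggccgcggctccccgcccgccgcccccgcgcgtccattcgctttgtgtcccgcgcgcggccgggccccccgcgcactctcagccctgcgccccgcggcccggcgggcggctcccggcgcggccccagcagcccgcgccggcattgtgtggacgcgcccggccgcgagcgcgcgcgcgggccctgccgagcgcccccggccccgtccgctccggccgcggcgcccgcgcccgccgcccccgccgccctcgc
The Kdm3a window held 1 GCGTG and no ACGTG. The Phf2 window held neither motif. ACGTG or GCGTG occurred in 43.8% of the 32851 promoter windows of the same length in the RefSeq table, so a match is common and is only a description of the letters. The Phf2 window held 63 CG dinucleotides and the Kdm3a window 24, against a median of 7 over all windows.

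Depth and the wider differences between libraries frame every value below. Libraries held 15113675 to 19606082 counts. The first principal component (35.5% of variance) set H3K9M replicate 3 beside H3WT replicate 2, far from H3WT replicates 1 and 4. The second component set all H3K9M libraries (19.05 to 39.84) apart from all H3WT libraries (-71.46 to -11.44), that pair included. The defining cartilage genes Sox9, Col2a1 and Acan were detected in all 6 libraries, and the summed level of 15 cartilage markers was 7436 to 11660 CPM (counts per unit depth after TMM normalization) in H3K9M and 7345 to 19650 CPM in H3WT, highest in H3WT replicate 2; 14 of the 15 had a negative log2 fold change and 2 an unadjusted p under 0.05, none an adjusted one (edgeR). Summed fibroblast markers (8 genes) were 12290 to 30320 CPM in H3K9M and 10030 to 34770 CPM in H3WT, lowest in H3WT replicate 2. Skeletal muscle markers (12 genes, with Myf5 at 0 in every library) summed to 178 CPM and 256 CPM in H3K9M replicates 1 and 3 but 29.4 CPM in H3K9M replicate 5 and 14.8 to 34.3 CPM in H3WT, where Acta1 made up most of the sum in replicates 1 and 4. All 7 tested muscle markers had a positive log2 fold change, 4 of them (Myod1, Des, Myh3 and Tnnt3) with an unadjusted p under 0.05 and groups that did not overlap, none with an adjusted one in edgeR and 2 (Des and Tnnt3) in DESeq2. Macrophage and blood markers (8 genes, with Ptprc, Adgre1, Tyrobp and Hbb-bs at 0) summed to 8.04 to 16.5 CPM in H3K9M and 3.84 to 6.29 CPM in H3WT. Endothelial markers (6 genes, with Cdh5 and Emcn at 0) separated the other way, at 2.13 to 3.21 CPM in H3K9M and 3.53 to 7.78 CPM in H3WT. In both lists 5 genes were under 1 CPM in every library, and Egfl7 made up most of the endothelial sum. These sums therefore do not show that macrophages or endothelial cells were present. Xist and the Y-linked Ddx3y were both present in every library. In bulk RNA, fewer cells that express a gene and less of its RNA in each cell cannot be told apart.

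None of the 9 tested demethylase genes passed the test between H3K9M and H3WT. At an adjusted p under 0.05 (Benjamini-Hochberg over all 13761 tested genes, from the quasi-likelihood test of edgeR) the count was 0 of 9, against 0 of 13761 genes (0%) in the whole table. At an unadjusted p under 0.05 it was 1 of 9, Phf2, lower in H3K9M, against 12.2% of all tested genes in either direction, 6.42% higher and 5.77% lower. DESeq2 called 390 of all genes at an adjusted p under 0.05 and limma-voom 0, and each called 0 members. The groups did not overlap for 1 of the 9 members, again Phf2, against 19.4% of all tested genes in either direction, 10.7% higher and 8.68% lower in H3K9M. At 1 of 9 (11.1%) in each count, the members' shares were below those of the whole table in either direction. They were above the shares for lower alone, and each rests on 1 gene. Of the 9, 6 had a negative and 3 a positive log2 fold change, with a median of -0.15, against a median of -0.003 over all tested genes. The members' median was -0.04 after a length and GC offset, -0.04 without H3WT replicate 1, -0.06 without H3WT replicate 4, -0.24 without H3K9M replicate 1 and -0.29 without H3WT replicate 2. Summed over the 10 genes, the level was 476, 483 and 507 CPM in H3K9M replicates 1, 3 and 5 and 573, 451 and 589 CPM in H3WT replicates 1, 2 and 4. H3WT replicate 2 was the lowest of the 6 and the other H3WT libraries were the highest.

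**Figure D1:**
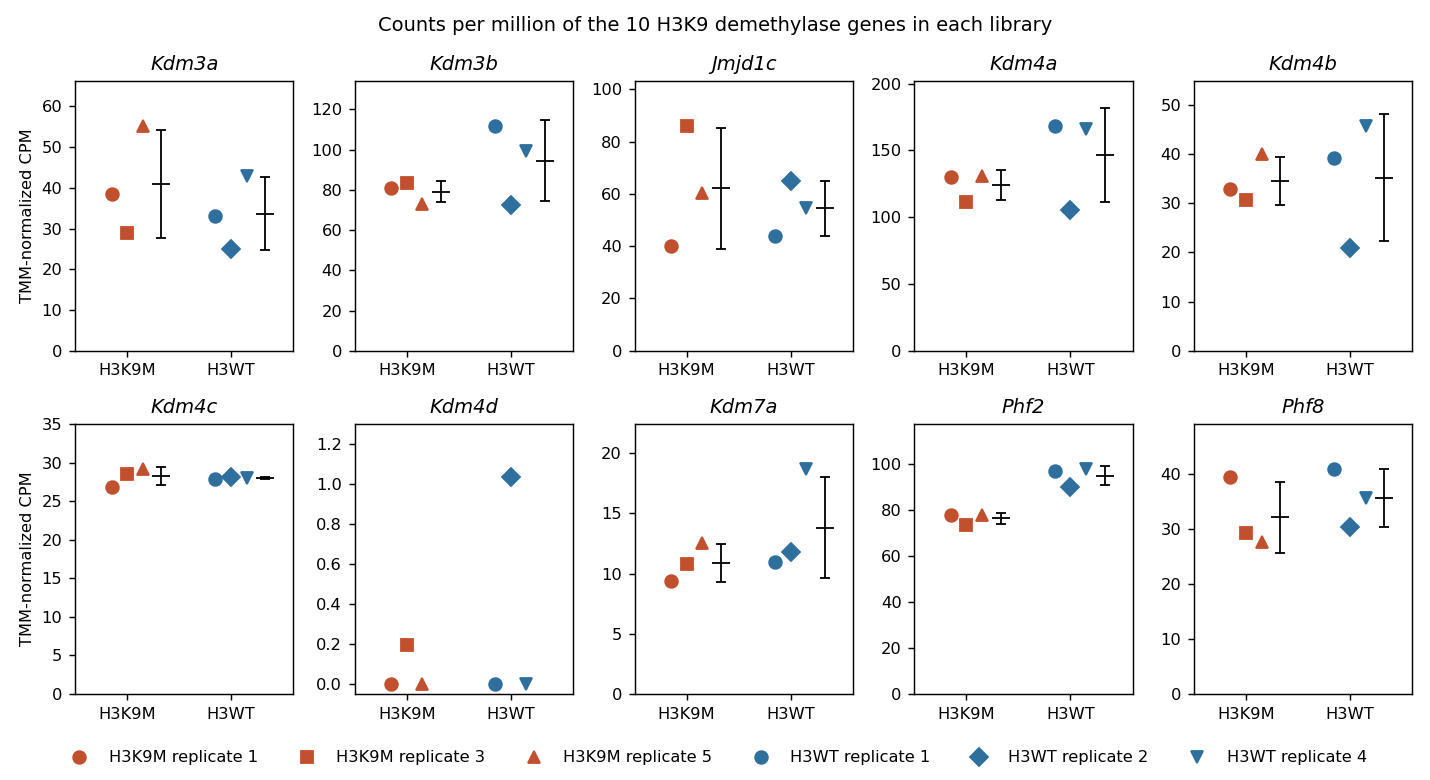
TMM-normalized CPM (vertical axis, from 0, one scale per gene) of the 10 genes in each of the 3 H3K9M and 3 H3WT libraries; points are libraries, and black marks give the group mean with the SD (left out for Kdm4d, which was at 0 in 4 libraries). Phf2 is the gene whose groups do not overlap, and Kdm4c has nearly the same level in all 6 libraries.

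Among the KDM7 enzymes, Phf2, the H3K9 dimethyl demethylase that works with ARID5B, was lower in each H3K9M library than in each H3WT library. Its level was 78.1, 73.7 and 77.8 CPM in H3K9M replicates 1, 3 and 5, and 97.2, 90.2 and 97.9 CPM in H3WT replicates 1, 2 and 4. The replicates lay close together in both groups (76.5 ± 2.44 CPM against 95.1 ± 4.27 CPM, mean ± SD of 3). On the log2 scale the difference was -0.31 (95% interval -0.56 to -0.06, SE 0.11), a level 19.5% lower, and it did not pass over all genes (adjusted p = 0.32, edgeR). By unadjusted p it ranked 849 of the 13761 tested genes. The groups did not overlap for 19.4% of all tested genes, and 8.68% were lower in H3K9M in this way. Over 6 libraries, which also differ by group, r of Phf2 with the median of the 7 tested muscle markers was -0.87. The muscle sum of H3K9M replicate 5 was 29.4 CPM and its Phf2 level 77.8 CPM. The H3WT muscle sums were 14.8 to 34.3 CPM, mostly Acta1 in replicates 1 and 4. Myod1, the myogenic regulator, had 19.5, 57.0 and 4.29 CPM in H3K9M replicates 1, 3 and 5 and 0, 1.04 and 0 CPM in H3WT. It was 1 of 4 muscle markers whose groups did not overlap, while those of Acta1, Tnnt1 and Mylpf did. Macrophage and endothelial marker sums differed by group as well, but rested on few genes at low levels, as given above. The part of any such cells in the Phf2 difference was not tested. When any 1 of the 6 libraries was dropped, the Phf2 log2 fold change lay between -0.34 and -0.28. Groups already apart stay apart on dropping a library, unless the scaling shifts, so their lack of overlap there adds nothing. The unadjusted p (edgeR) stayed under 0.05 only on dropping H3K9M replicate 1 (0.046) or H3WT replicate 2 (0.023). Each other drop gave an unadjusted p of 0.053 to 0.060 (edgeR). The Phf2 transcript is rich in G and C (57.1%), and with a per-library offset for transcript length and GC content the log2 fold change was -0.08 and the groups overlapped. With an offset for GC content alone it was -0.23, with one for length alone -0.23, and in both the groups stayed apart.

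Phf8 encodes an X-linked enzyme of the same family and varied within both groups. It had 39.6, 29.4 and 27.6 CPM in H3K9M against 40.9, 30.5 and 35.7 CPM in H3WT, in the replicate order used above. Replicate 1 was the highest in both groups, and the ranges overlapped (edgeR, adjusted p = 0.81, log2 difference -0.15 with SE 0.19). Xist was lowest in the same replicates 1 (90.1 CPM in H3K9M against 56.0 CPM in H3WT) and reached 119 to 407 CPM in the others; its part in the Phf8 level was not tested. Kdm7a, which can also act on dimethylated H3K27, was the lowest tested member per length. It had 9.38, 10.8 and 12.5 CPM in H3K9M against 10.9, 11.8 and 18.7 CPM in H3WT. A single library, H3WT replicate 4, stood above the other 5, and the log2 difference of -0.34 (edgeR, adjusted p = 0.66, SE 0.28) was -0.06 without it. An antisense gene, 4930599N23Rik, overlaps Kdm7a exons by 287 bases on the opposite strand and had at most 11 counts in a library.

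In the KDM3 family, Kdm3a, a demethylase of mono- and dimethylated H3K9 that is itself a known target of hypoxia-inducible factor (HIF), had the widest range of the tested members, by a small margin over Kdm4b and Jmjd1c. Its level was 38.6, 29.0 and 55.2 CPM in H3K9M replicates 1, 3 and 5, and 33.2, 25.0 and 42.8 CPM in H3WT replicates 1, 2 and 4. The highest library held 2.21 times the lowest, and the spread lay within the groups, which overlapped. edgeR put the log2 difference at 0.28 (95% interval -0.36 to 0.93, SE 0.28, adjusted p = 0.73), and 0.02 without H3K9M replicate 5. Kdm3b, the closest relative of Kdm3a, had 81.1, 83.3 and 73.1 CPM in H3K9M against 112, 72.6 and 99.4 CPM in H3WT. H3WT replicates 1 and 4 stood above all H3K9M libraries while H3WT replicate 2 stood below them. edgeR put the log2 difference at -0.26 (95% interval -0.65 to 0.13, SE 0.17, adjusted p = 0.58). Kdm3b exons overlap the antisense gene Gm26538 by 3468 bases, and without a stated strand setting reads of the pair cannot be told apart. Jmjd1c, the largest KDM3 family member, whose demethylase activity on H3K9 is debated, had 40.0, 86.0 and 60.2 CPM in H3K9M against 43.9, 65.1 and 54.5 CPM in H3WT. Its highest libraries were H3K9M replicate 3 and H3WT replicate 2, the pair that lay together on the first principal component. The log2 difference of 0.19 (edgeR, adjusted p = 0.84, SE 0.28) turned to -0.11 without H3K9M replicate 3.

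Kdm4a, the most abundant member, led the KDM4 family, whose enzymes act on trimethylated H3K9. It had 129.8, 111 and 131 CPM in H3K9M replicates 1, 3 and 5 and 168, 106 and 166 CPM in H3WT replicates 1, 2 and 4. As for Kdm3b, H3WT replicates 1 and 4 lay above all H3K9M libraries and H3WT replicate 2 below them. edgeR put the log2 difference at -0.24 (95% interval -0.67 to 0.19, SE 0.19, adjusted p = 0.65). It shrank to -0.13, -0.14 and -0.16 without H3WT replicate 1, H3WT replicate 4 and H3K9M replicate 3. Without H3WT replicate 2 it was -0.42 for Kdm4a (adjusted p = 0.17) and -0.41 for Kdm3b (adjusted p = 0.18, edgeR). The groups then did not overlap for 3 of the 9 members (Phf2, Kdm3b and Kdm4a), against 37.4% of all genes tested in that fit.

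Kdm4b, a further HIF target among the demethylases, had 33.0, 30.6 and 40.0 CPM in H3K9M against 39.1, 20.8 and 45.7 CPM in H3WT. H3WT replicate 2 was the lowest and H3WT replicate 4 the highest of the 6. Its log2 difference of -0.03 came with a 95% interval of -0.68 to 0.62 (edgeR, adjusted p = 0.98), so the data fix its size only loosely. Kdm4c was the steadiest member, with 26.9, 28.6 and 29.2 CPM in H3K9M against 27.9, 28.2 and 28.0 CPM in H3WT. Its highest library held 1.08 times its lowest. edgeR put the log2 difference at 0.01 (95% interval -0.32 to 0.34, SE 0.14, adjusted p = 0.98). Kdm4d, a KDM4 gene known for expression in the testis, had 4 counts in H3K9M replicate 3, 20 counts in H3WT replicate 2 and 0 in the other 4 libraries. A count of 0 allows up to 3 counts, or 0.153 to 0.201 CPM at the depth of those 4 libraries. The 2 libraries with counts are again the pair that lay together on the first principal component. The Kdm4d transcript shares 90.9% identity over 979 bases with that of Kdm4dl, so the source of these few reads is uncertain.

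**Figure D2:**
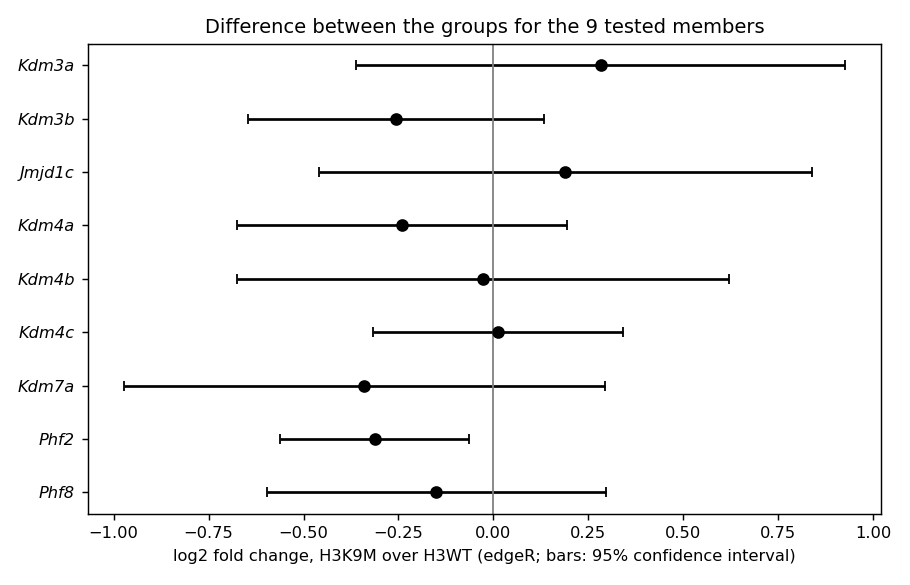
Log2 fold change (horizontal axis, H3K9M over H3WT, edgeR) of the 9 tested members, with bars for the 95% confidence interval from 3 libraries a group. The interval includes 0 for 8 members and runs from -0.56 to -0.06 for Phf2, before correction for the number of genes tested.

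Per kilobase of transcript, Kdm4a stood first and 4 genes in the middle could not be ranked. Counts were divided by the length of the longest GENCODE M21 transcript of each gene. Kdm4a had 29.0 ± 5.7 CPM per kb (SD over 6 libraries) and made up 27.9% to 34.0% of the summed level per length of the 10 genes in a library. Phf2 (15.6 ± 1.93 CPM per kb) and Kdm3b (13.7 ± 2.45 CPM per kb) came next, with Phf2 above Kdm3b in 6 of 6 libraries although their ranges overlapped. Kdm3a (7.68 ± 2.24), Kdm4b (7.62 ± 1.91), Jmjd1c (6.77 ± 1.93) and Kdm4c (6.70 ± 0.18 CPM per kb) did not differ beyond their spread. Phf8 (5.34 ± 0.88 CPM per kb) was below Kdm4c in 6 of 6 libraries, again with overlapping ranges. Kdm7a had 1.29 ± 0.34 CPM per kb, and the mean of Phf8 was 4.13 times as high. Kdm4d reached at most 0.385 CPM per kb. This order holds for one choice of length: with the median transcript length of each gene, Kdm3a ranked first, Kdm4a second and Phf2 seventh.

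**Figure D3:**
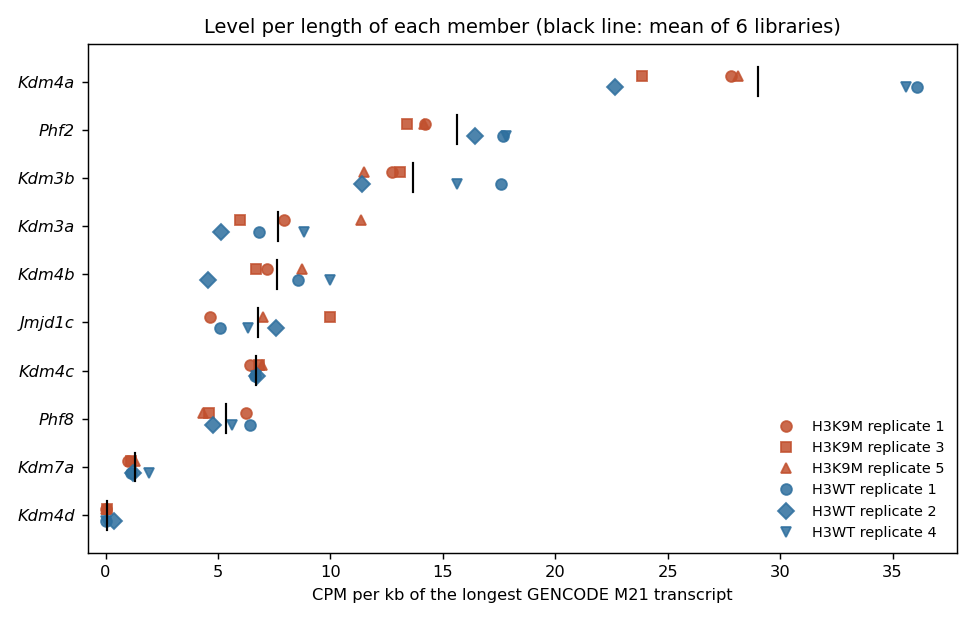
CPM per kb of the longest annotated transcript (horizontal axis, linear) of each member in the 6 libraries, ordered by the mean over libraries (black line). Kdm4a lies above all others in every library, the 4 genes from Kdm3a to Kdm4c share one range, and Kdm7a and Kdm4d are lowest.

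Across the 6 libraries the level of Kdm3a varied together with that of several HIF target genes. HIF is the transcription factor that accumulates when oxygen is low, the same oxygen that JmjC enzymes consume. Pdk1, which restrains pyruvate entry into mitochondria, had 50.4, 21.3 and 96.7 CPM in H3K9M against 37.9, 16.0 and 48.7 CPM in H3WT. Bnip3, a mitophagy receptor, had 55.9, 23.0 and 97.5 CPM in H3K9M against 46.6, 22.7 and 49.0 CPM in H3WT. Both had the order of Kdm3a within each group, with replicate 5 above replicate 1 above replicate 3 in H3K9M and replicate 4 above replicate 1 above replicate 2 in H3WT. Pearson's r of log2 CPM with Kdm3a over 6 libraries was 0.98 for Pdk1, 0.95 for Bnip3, 0.95 for Egln1, 0.94 for Ero1l, 0.88 for P4ha1 and 0.86 for Pgk1, so 6 of the 13 tested HIF targets exceeded 0.8. The rest ran from -0.06 (Adm) to 0.76 (Ldha). The share of all tested genes above 0.8 is not given here. With the median of the 13 targets in each library, r was 0.85 and Spearman's rho 0.89. It was 0.94 over the 4 libraries left without H3K9M replicates 3 and 5. With so few libraries r moved widely for other members too: from 0.16 to 0.80 for Phf8, 0.56 to 0.82 for Kdm4b and -0.01 to -0.67 for Kdm4c. The value over 4 libraries therefore adds little. Kdm4b, for which 2 of the 13 targets exceeded 0.8, had r 0.56 with the target median over 6 libraries, Kdm4a 0.50 and Jmjd1c -0.63. These correlations are descriptions over 6 libraries that also share depth, scaling and the other differences named above. Between the groups, edgeR called 0 of the 13 HIF targets at an adjusted p under 0.05 and DESeq2 called 1, Adm, lower in H3K9M (adjusted p = 1.18e-07). The median log2 fold change of the list was 0.19.

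**Figure D4:**
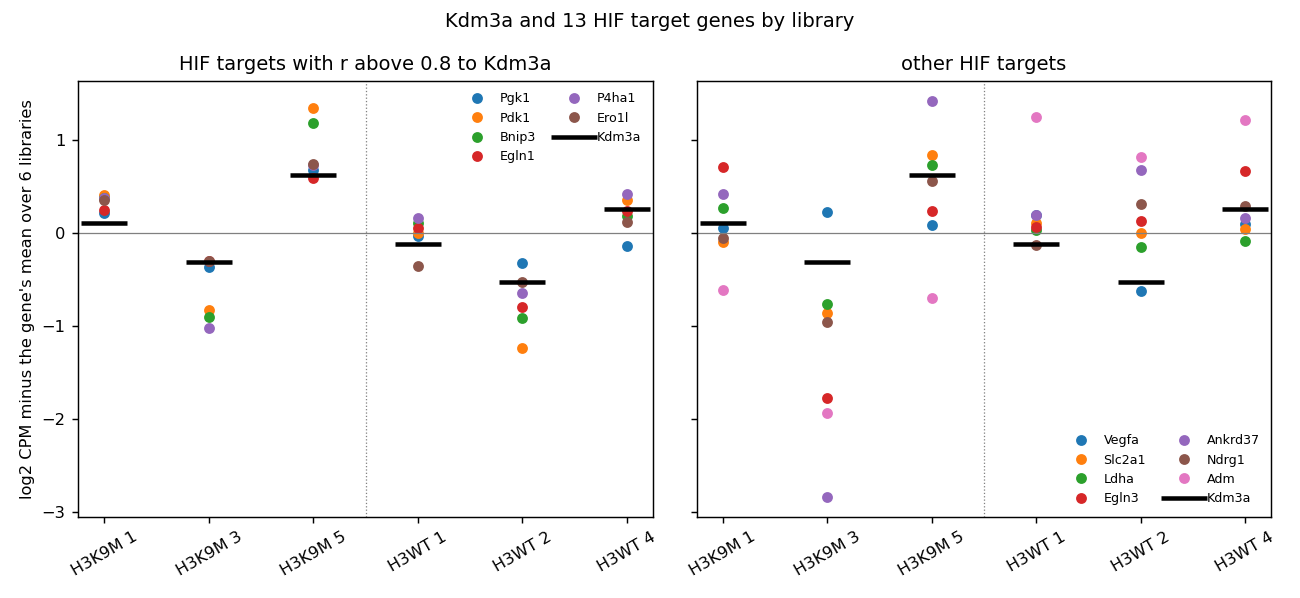
Log2 CPM minus the mean of each gene over 6 libraries (vertical axis) for Kdm3a (black bars) and 13 HIF target genes (coloured points) in each library; the left panel holds the 6 targets whose r with Kdm3a is above 0.8 and the right panel the other 7. Kdm3a is highest in H3K9M replicate 5 and low in H3K9M replicate 3 and H3WT replicate 2. The left-hand targets were picked by this r, so their likeness to Kdm3a follows from the choice. Adm does not follow Kdm3a.

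The members did not vary as one block. Of the 36 pairs among the 9 tested members, 22 had a positive r over 6 libraries, with a median of 0.25. Kdm4a and Kdm4b (r 0.84), Kdm3b and Kdm4a (0.84) and Kdm3a and Kdm4b (0.78) were the most alike. Kdm4c and Phf8 (-0.85) and Jmjd1c and Phf8 (-0.84) ran most opposite. Over all 13760 other tested genes, the closest single pattern was Sbf1 for Kdm4a (r 0.996), Prelp for Phf2 (0.996), Snx14 for Jmjd1c (0.998), Gfod1 for Phf8 (0.998), Clmp for Kdm3b (0.995), Gm42162 for Kdm3a (0.995), Mbd5 for Kdm4b (0.995), Ddx59 for Kdm4c (0.991) and Ldb2 for Kdm7a (0.983). Such values are easily reached when 13760 genes are searched over 6 libraries.

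Other enzymes that remove H3K9 methylation or resemble KDM3 also had no gene past the adjusted threshold (0 of 5). Riox2, a JmjC oxygenase, had 35.6, 44.0 and 28.9 CPM in H3K9M against 26.1, 20.1 and 27.1 CPM in H3WT, with no overlap (edgeR, adjusted p = 0.34, log2 difference 0.57 with SE 0.21). Kdm1a (LSD1), a flavin-dependent demethylase without a JmjC domain, had 91.2, 106 and 105 CPM in H3K9M against 87.3, 85.9 and 79.8 CPM in H3WT, also without overlap (edgeR, adjusted p = 0.43, log2 difference 0.25 with SE 0.12). Such a lack of overlap was found for 19.4% of all tested genes. Among 11 genes listed as demethylases of other histone lysines, 0 passed even at an unadjusted p under 0.05, and the median log2 fold change was -0.11. Kdm2b, a demethylase of H3K36, had the smallest p there (log2 fold change -0.31, adjusted p = 0.46, edgeR).

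On the side of the writers, 3 of the 10 genes listed as H3K9 methyltransferases had an unadjusted p under 0.05, all lower in H3K9M. Over all tested genes the share was 12.2% in either direction and 5.77% lower. With the length and GC offset 2 of the 10 had such a p lower in H3K9M and 1 higher. Over all tested genes the share in that fit was 9.16% in either direction. The list includes Atf7ip, a cofactor of SETDB1 and not itself a methyltransferase. In edgeR 0 of 10 passed over all genes, while DESeq2 called 1, Prdm16 (adjusted p = 0.00796). Ehmt1, which encodes GLP, had 59.9, 65.7 and 56.1 CPM in H3K9M against 87.7, 84.3 and 79.5 CPM in H3WT (edgeR, adjusted p = 0.23, log2 difference -0.47 with SE 0.12). Ehmt2, its partner G9a and the writer of the dimethyl mark that PHF2 and KDM3 enzymes remove, had 178, 185 and 184 CPM against 228, 247 and 216 CPM (edgeR, adjusted p = 0.30, log2 difference -0.34 with SE 0.11). Prdm16 had 22.6, 24.6 and 23.3 CPM against 38.1, 37.9 and 36.5 CPM (edgeR, adjusted p = 0.19, log2 difference -0.67 with SE 0.14). For each of these 3 the groups did not overlap, as for Phf2. Mecom was the fourth gene of the list without overlap and lay the other way, with 24.2 to 29.5 CPM in H3K9M and 18.7 to 23.7 CPM in H3WT (edgeR, adjusted p = 0.55). Over all tested genes, 19.4% had groups that did not overlap. Over the list the median was -0.14, with 7 lower and 3 higher.

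Among 10 readers and silencing factors, Uhrf1, which binds methylated H3K9 and hemimethylated DNA, had the smallest p (edgeR, adjusted p = 0.36, log2 difference -0.53 with SE 0.20), and the list median was -0.04. Of the 13 genes listed for 2-oxoglutarate metabolism or for removal of metabolites that compete with it, 0 passed over all genes and the median was 0.24. Idh2, a mitochondrial source of 2-oxoglutarate, averaged 81.6 ± 18.1 CPM under H3K9M against 118 ± 13.9 CPM under H3WT (SD over 3 libraries; edgeR, adjusted p = 0.32, log2 difference -0.53). Fh1, the fumarase that clears the JmjC inhibitor fumarate, was 65.3 ± 3.68 CPM and 52.0 ± 1.14 CPM (log2 fold change 0.33, adjusted p = 0.33, edgeR). Adm, which encodes the vasodilator peptide adrenomedullin, had the smallest p of the HIF targets, with 43.1, 17.2 and 40.6 CPM in H3K9M against 157.5, 116 and 154 CPM in H3WT (edgeR, adjusted p = 0.17, log2 difference -2.09 with SE 0.34). In the list of 8 tested partners of the demethylases 0 passed, and the median log2 fold change was -0.20. Arnt, the constant subunit of HIF, had the smallest p (log2 fold change -0.26, adjusted p = 0.42, edgeR). Arid5b, the partner of PHF2, had 178, 106 and 144 CPM in H3K9M against 340, 109 and 351 CPM in H3WT (edgeR, adjusted p = 0.47, log2 difference -0.90 with SE 0.45). Like Kdm4a and Kdm3b, it was high in H3WT replicates 1 and 4 and not in H3WT replicate 2.

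**Figure D5:**
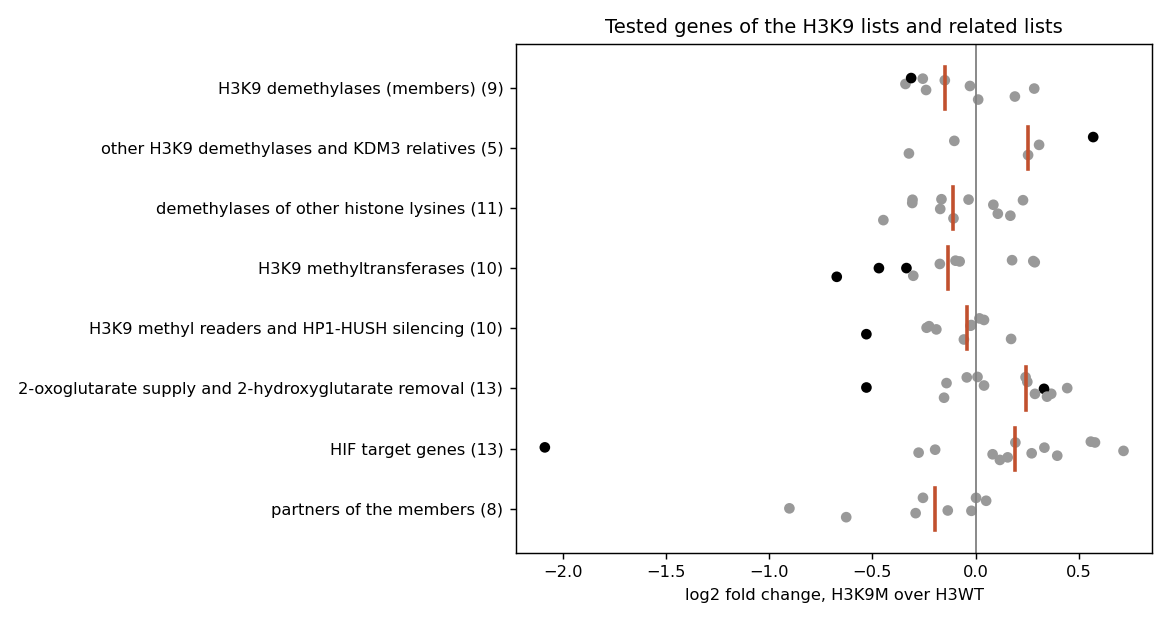
Log2 fold change (horizontal axis, H3K9M over H3WT, edgeR) of each tested gene of the demethylase list and 7 related lists (number tested in brackets); black points had an unadjusted p under 0.05, grey points did not, and the red vertical mark is the list median. The list medians lie between -0.20 and 0.25, and no point passed the adjusted threshold in edgeR.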

How the data were processed

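The authors deposited 1 table of read counts for gene symbols with a column for each library; its whole numbers and unequal totals show raw, unnormalized counts. The submitters' processing notes name HISAT2, featureCounts, DESeq2 and the build mm10. Versions, annotation and strand setting are not given in the sources used here. A Tecan mRNA library kit was used, per the labels' protocols. Groups came from the sample titles, and 0 columns belonged to other samples.

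Counts were fitted over the 6 libraries in R 4.3.3 with edgeR 4.0.16 (filterByExpr defaults, TMM scaling, robust glmQLFit, glmQLFTest, genotype the only term), with Benjamini-Hochberg adjustment over 13761 genes and a threshold of 0.05. The standard error is the log2 fold change divided by the square root of F. An exact permutation of 3 against 3 libraries has 0.1 as its smallest two-sided p and was not used. Correlations used log2 CPM with a prior count of 2. Intervals for counts of 0 cover counting error only. The fit was tested on simulated counts.

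The members and lists were chosen with earlier results of these data known. Named were all 10 members, the gene with the smallest p or any with an unadjusted p under 0.05 in each related list, and the gene most correlated with each member. Kdm1a, Arid5b, Mecom, Ldha, the muscle markers and the HIF targets named beside Kdm3a were chosen after their values were seen. The symbols Riox2 and Ero1l follow the list or table, and Riox2 is listed in the table as Mina. Of the 14 listed HIF targets, 13 were matched to a row. Lengths and GC content came from GENCODE M21 (GRCm38, the build that mm10 names), found for 94.3% of tested genes, similar transcripts from blastn (at least 90% identity over 200 bases), and promoters from RefSeq, GRCm38.p6. Alternatives were DESeq2 1.42.0, limma-voom (limma 3.58.1), DESeq2 size factors, library size alone, 2 filters on low counts, removal of genes on X and Y other than Phf8, offsets for length and GC content, no robust estimation, the median transcript length, and leaving out each library.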

Additional observations from a re-analysis of the deposited data

How the results depend on the processing

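No paired analysis was possible because the groups share only replicate number 1. None of the alternatives brought a member past an adjusted p of 0.05. The lowest adjusted p of a member under any of them was 0.17, for Kdm4a without H3WT replicate 2. The number of genes called over the whole table was 0 in the reported fit, 390 with DESeq2, 36 when every gene with a count was tested, and 0 to 91 when a library was left out (91 without H3WT replicate 2, 2 without H3K9M replicate 3); the cause was not tested. The number of members whose groups did not overlap was 1 in the reported fit, 0 with the length and GC offset, 3 with the GC offset alone (Kdm4c, Kdm7a and Phf2, all lower in H3K9M) and 1 to 3 when a library was left out. In the same fits the groups did not overlap for 19.4%, 19.1%, 19.3% and 26.8% to 37.4% of all genes tested. The offsets for GC content alone and length alone were added after the data were seen.

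Directions changed for 3 members with small or unsteady differences. Kdm4b was -0.03 in the reported fit, 0.056 with limma-voom, 0.0399 with library size alone, 0.23 with the length and GC offset, 0.10 with the GC offset alone, 0.0488 with the length offset alone, and -0.29 to 0.21 when a library was left out (positive on dropping H3K9M 1 or 3, or H3WT 1 or 4). Kdm4c was 0.01, -0.0431 with the length and GC offset, -0.0603 with the GC offset alone and -0.0032 (without H3K9M replicate 5) to 0.0464 on leaving out a library. Jmjd1c was 0.19, and -0.11 (without H3K9M replicate 3) to 0.426 on leaving out a library. The length and GC offset also moved Kdm3b to -0.06, Kdm4a to -0.09 and Phf8 to -0.02. The other 6 members kept their direction in every alternative. Leaving out a library gave -0.41 to -0.12 for Kdm3b and -0.32 to -0.04 for Phf8.

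The median of the genes listed as demethylases of other lysines, -0.11, was 0.0732 with the length and GC offset. It was between -0.17 and 0.0326 on leaving out a library. That of the 2-oxoglutarate genes, 0.24, was 0.0493 with the length and GC offset and 0.10 to 0.29 when a library was left out. The HIF target median, 0.19, was -0.08 without H3K9M replicate 5 and 0.55 without H3K9M replicate 3. Library size alone raised the median of all genes by 0.06. Rank per length changed for 6 of the 10 members with the median transcript length. Depth limits Kdm4d, which the filter removed; when every gene with a count was tested, its log2 fold change was -2.28 (SE 2.67, edgeR, adjusted p = 0.74).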
